A study of Homo sapiens with 9 samples.

Results

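The isoforms described here were annotated transcripts that the sequencing listed in both co-depletions of nonsense-mediated decay (NMD) factors and almost not at all without them. They were chosen from the deposited isoform signal: an assembled isoform that matched a reference transcript in full (a known isoform), with a signal under 4 in both the XRN1-depleted and the control library and of at least 20 in both the SMG6/XRN1 and the UPF1/XRN1 library. This rule chose 1143 of 149683 known isoforms (0.764%), out of 199618 isoforms of 48558 loci in the table. The chosen isoforms lay in 1063 loci under 1072 gene symbols. A total of 989 loci held 1 of them, 68 held 2 and 6 held 3. Since the rule used the signal of every library, the signals below are a description, and no test was made on them.

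All 4 RNA-seq libraries came from HEK293 cells, a human embryonic kidney line, of the Flp-In T-Rex b-39 subline. Every group carried a beta-globin reporter with a premature stop codon (b-globin PTC39) in the Flp-In locus, the control included. The groups were SMG6/XRN1 depletion, UPF1/XRN1 depletion, XRN1 depletion and the control, which received siRNA against EGFP, with 1 library each, so no difference has a replicate check. Poly(A)+ RNA was purified from digitonin extracts, which hold the cytoplasm, and sequenced from ScriptSeq v2 libraries. The other 5 samples of the series, libraries of RNA 5' ends and of capped ends, were not analysed here.

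NMD removes mRNAs on which the ribosome stops too early. In mammals a stop codon well upstream of the last exon junction leaves an exon junction complex on the mRNA, which recruits the decay machinery. UPF1 is the RNA helicase at its centre, SMG6 is the endonuclease that cuts near the stop codon, and XRN1 degrades the downstream fragment from its 5' end. Many isoforms that end up in this pathway arise from a skipped or extra exon, or a kept intron, that shifts or closes the reading frame.

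The deposited signal is a spike-in normalised estimate of reads per isoform. Its low values lay on whole multiples of a step, the worth of 1 read, of 4.253 in SMG6/XRN1, 3.721 in UPF1/XRN1, 4.051 in XRN1 and 3.856 in the control. The limit of 20 therefore stood for 4.70 reads in SMG6/XRN1 and 5.37 reads in UPF1/XRN1, and the limit of 4 for about 1 read in XRN1 and in the control. The libraries held about 31460000 to 35970000 estimated reads. The mRNAs of the depleted factors gave no check of the labels. XRN1 stood at 10.1 FPKM in SMG6/XRN1, 6.50 in UPF1/XRN1, 7.31 in the library labelled XRN1 and 7.80 in the control, and SMG6 at 7.66 FPKM in the library labelled SMG6/XRN1 against 5.55 in XRN1 and 4.77 in the control. UPF1 stood at 8.59 FPKM in the library labelled UPF1/XRN1, against 11.4 in SMG6/XRN1, 11.6 in XRN1 and 6.71 in the control. Protein levels were not examined here, so each library is named by its label throughout. Vimentin (VIM) and the neurofilament gene NEFL were abundant, as in HEK293 cells, while NEFM, NEFH and PAX2 stayed under 1 FPKM. EN2 stood at 2.41 to 3.43 FPKM. The epithelial gene EPCAM stood at 97.96 to 126 FPKM. The blood cell gene PTPRC was at most 0.034 FPKM in the co-depletions, listed at 0 in XRN1 and at 0.0432 FPKM in the control. The globin genes were detected in every library, HBA1 at 3.83 to 6.21 FPKM and HBA2 at 1.08 to 2.47 FPKM.

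The sequences below show where the annotation puts early stop codons and skipped exons in several of the most abundant of these isoforms. They were read from the GENCODE 29 transcripts of the same identifiers (GRCh38), which can differ from the structure the authors assembled on hg19. In the first set capitals mark the stop codon, and the distance given is from the stop codon to the last exon junction. The stop codon of the KIAA1033 (WASHC4) isoform lay in exon 9 of 33 (chr12:105121095-105121097, plus strand), 2896 bases before that junction. In SHMT2 it lay in exon 3 of 11 (chr12:57231740-57231742, plus strand), 1074 bases before it. In ACER3 it lay in exon 3 of 10 (chr11:76976297-76976299, plus strand), 472 bases before it. In CAPZA2 it lay in exon 7 of 10 (chr7:116910229-116910231, plus strand), 215 bases before it. In GMPR2 it lay in exon 4 of 10 (chr14:24235760-24235762, plus strand), 653 bases before it.
KIAA1033 ENST00000550053.5: tttcaggtttttTGAcagactatgtatgag
SHMT2 ENST00000555116.5: agaggtggtggaTGAaattgagctgctgtg
ACER3 ENST00000531461.5: acagctattggaTGAactcccaatgatata
CAPZA2 ENST00000426421.5: tgtttttattttTAAggaatggtcgttgga
GMPR2 ENST00000559287.5: cactgctgtccaTAAgcactatagcctcgt

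In the second set the isoform skips an exon of the known isoform with the highest control signal among those matched in GENCODE 29, and capitals mark the bases after the new junction. The PTBP2 isoform skips 34 bases (intron chr1:96804940-96806865, plus strand), the SHMT2 isoform 80 bases (intron chr12:57231001-57231712, plus strand) and the ACER3 isoform 53 bases (intron chr11:76926668-76976288, plus strand). At PTBP2 the known isoform highest in the control, ENST00000236228 at 3753, was not matched, and the comparison was with ENST00000370198 at 2753. None of these lengths is a multiple of 3, so each skip shifts a reading frame that runs through it. Other abundant isoforms, not printed here, skip exons whose lengths are multiples of 3. These were PIP5K1A (147 bases), CEP192 (210 bases), CDC42BPA (105 bases) and BACH2 (exons of 78 and 93 bases). The printed skips thus do not stand for all skips among the abundant isoforms. In ACER3 the stop codon of the first set can be read in the capitals, a few bases after the junction.
PTBP2 ENST00000476419.5: aatttaaatgaagagGTGTTTATGGAGATG
SHMT2 ENST00000555116.5: ctcattgcctcagagATACTATGGGGGAGC
ACER3 ENST00000531461.5: atttagcactcacagCTATTGGATGAACTC

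The most abundant was an isoform of PTBP2, a splicing repressor of the nervous system. Its signal was 15127 in SMG6/XRN1, 14139 in UPF1/XRN1 and 0 in both XRN1 and the control. Skipping of this 34-base exon under the related repressor PTBP1 is a textbook route of PTBP2 mRNA into NMD in cells outside the nervous system. GENCODE 29 types this isoform as a processed transcript without an annotated stop codon, and it also has another splice site. The isoform held 41.7% of the locus signal in SMG6/XRN1 (95% interval of the reads, 40.7 to 42.8%) and 45.5% in UPF1/XRN1 (44.4 to 46.6%). Its other isoforms summed to a signal of 21127 in SMG6/XRN1, 16955 in UPF1/XRN1, 15818 in XRN1 and 8144 in the control. The known isoform ENST00000541987 was the largest of them, at 12649 in SMG6/XRN1, 10494 in UPF1/XRN1, 8664 in XRN1 and 1506 in the control. The compared isoform ENST00000370198 stood at 4840 in SMG6/XRN1, 3633 in UPF1/XRN1, 0.194 in XRN1 and 2753 in the control. The sum of the other isoforms was thus also highest in the co-depletions, while single isoforms varied between libraries.

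KIAA1033, now named WASHC4, encodes a subunit of the WASH complex that builds actin on endosomes. Its NMD-typed isoform stood at 3992 in SMG6/XRN1, 5389 in UPF1/XRN1 and 0 in XRN1 and the control, which was 21.3% of the locus in SMG6/XRN1 and 28.9% in UPF1/XRN1. The protein-coding isoform of the locus stood at 13999 in SMG6/XRN1, 12166 in UPF1/XRN1, 11449 in XRN1 and 9380 in the control. SHMT2, the mitochondrial serine hydroxymethyltransferase, had an NMD-typed isoform at 1527 in SMG6/XRN1, 2391 in UPF1/XRN1 and 0 in XRN1 and the control. It held 2.88% of the locus signal in SMG6/XRN1 and 4.45% in UPF1/XRN1. A second NMD-typed SHMT2 isoform that shares its stop codon and skip was chosen as well, at 77.1 in SMG6/XRN1, 69.9 in UPF1/XRN1, 0 in XRN1 and 0.728 in the control. The isoform of ACER3, an alkaline ceramidase, stood at 1300 in SMG6/XRN1, 1351 in UPF1/XRN1 and 0 in XRN1 and the control. CAPZA2, a subunit of the actin capping protein, had its NMD-typed isoform at 1783 in SMG6/XRN1, 1626 in UPF1/XRN1 and 0 in XRN1 and the control. The NMD-typed isoform of GMPR2, a GMP reductase of purine metabolism, stood at 792 in SMG6/XRN1, 680 in UPF1/XRN1 and 0 in XRN1 and the control.

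Not all of the abundant isoforms had an early stop codon. CCP110, a centriole protein that restrains cilia, had a protein-coding isoform with another first exon at 4251 in SMG6/XRN1, 3876 in UPF1/XRN1, 0 in XRN1 and 0.568 in the control. Its leading isoform was lower in the co-depletions, at 4055 in SMG6/XRN1 and 3401 in UPF1/XRN1, against 5540 in XRN1 and 6828 in the control. DLG1, a scaffold of cell polarity, had an isoform at 2542 in SMG6/XRN1, 4735 in UPF1/XRN1 and 0 in XRN1 and the control. The isoform of XPO1, the export receptor of the nucleus, stood at 1532 in SMG6/XRN1, 4379 in UPF1/XRN1 and 0 in XRN1 and the control. A new-junction isoform nearest to that same XPO1 transcript held most of the locus in every library, at 70.9% in SMG6/XRN1, 59.7% in UPF1/XRN1, 77.2% in XRN1 and 78.5% in the control. In GENCODE 29 the stop codons of the CCP110, DLG1 and XPO1 isoforms lie after the last junction. Further isoforms among the 25 most abundant belonged to HELLS, AHCYL1, PIP5K1A, MLL5, TRA2B, RTTN, HSPD1, COX5B, PPP2R4, ZBED3, PPT2, CEP192, BNIP3L, CDC42BPA and BACH2. Their genes ranged from a chromatin remodeller (HELLS) and a mitochondrial chaperonin (HSPD1) to centrosome and centriole proteins (CEP192, RTTN) and a mitophagy receptor (BNIP3L).

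**Figure D1:**
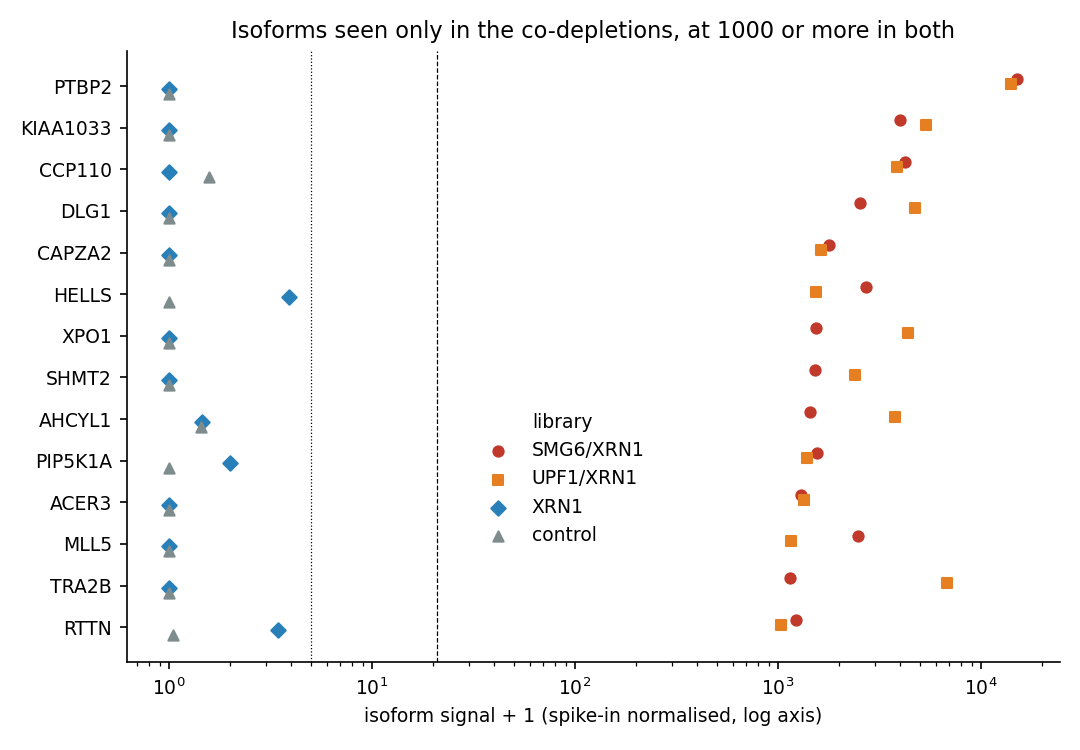
Signal of the 14 isoforms that reached 1000 in both co-depletions, in each library, as signal + 1 on a log axis, in the order of the smaller of the co-depletion signals. The dotted and dashed lines mark the limits of 4 and 20, and the gap between them and the points is fixed by the rule. PTBP2 stands highest in SMG6/XRN1 and in UPF1/XRN1, and TRA2B shows the widest gap between the co-depletions.

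Most of the isoforms were far less abundant than these. The median signal was 64.3 in SMG6/XRN1 (quartiles 36.005 and 133) and 66.2 in UPF1/XRN1 (36.5 and 131), against a median of 0 in both XRN1 and the control. In XRN1 965 of the isoforms were listed at 0 and in the control 953, with 855 at 0 in both. A listed 0 can be a failed estimate of an isoform and not an absence of its reads. By the smaller of the co-depletion values, the median was 12.1 reads. A total of 477 isoforms rested on under 10 reads in at least 1 co-depletion, 261 had at least 25 reads in both and 39 at least 100. Only 14 of 1143 reached a signal of 1000 in both. All 1143 carry the authors' NMD mark, which the rule itself fixes, since in the whole table the mark was set, with 0 exceptions, wherever a nonzero signal of each co-depletion exceeded that of the control by a factor of over 2, and nowhere else. The gene was protein-coding for 1002 of them.

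The reversed rule, at least 20 in XRN1 and the control and under 4 in both co-depletions, counted isoforms listed only in the opposite direction. It cannot tell a fall in the co-depletions from a failed estimate there. It found 423 known isoforms (0.283%), so those seen only in the co-depletions were 2.70 times as many. With signals rescaled to equal totals, 1085 were seen only in the co-depletions and 432 in the opposite direction. Of the known isoforms that reached 20 in both co-depletions, 2.87% were seen only there. Of those that reached 20 in XRN1 and the control, 1.23% were seen only there. Among isoforms with a new junction, 953 of 15910 (5.99%) were seen only in the co-depletions and 314 of 12753 (2.46%) only in XRN1 and the control. Of the 1063 loci 68 also held a known isoform of the reversed kind, which had 417 loci in all. In DMTF1 an NMD-typed isoform stood at 539 in SMG6/XRN1, 560 in UPF1/XRN1, 0.600 in XRN1 and 1.84 in the control. In the same locus a protein-coding isoform stood at 0 in both co-depletions, 3242 in XRN1 and 1207 in the control. In ANKFY1 the types were the other way round: the protein-coding isoform stood at 1240 in SMG6/XRN1, 418 in UPF1/XRN1 and 0 in XRN1 and the control, and the NMD-typed one at 2.12 in SMG6/XRN1, 1.98 in UPF1/XRN1, 928 in XRN1 and 318 in the control. Both genes were picked after their values were seen.

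Transcript type was not part of the rule. It came from GENCODE 29, which held 1066 of the 1143 identifiers (93.3%), 266 of them in the same version. Protein-coding isoforms were the most frequent type (544, 47.6%), followed by NMD-typed isoforms (170, 14.9%), retained introns (159) and processed transcripts (145). Relative to what could be chosen the order was another. Of NMD-typed isoforms at 20 or more in both co-depletions, 4.81% were seen only there (95% interval 4.13 to 5.57%), against 2.31% of protein-coding isoforms (2.12 to 2.51%). The share was 4.19% for retained introns and 3.69% for processed transcripts. Under the reversed rule the NMD-typed share was 0.932% (0.598 to 1.38%), against 1.32% of protein-coding isoforms (1.18 to 1.48%), and these intervals overlap. The shares were higher at low signal, as is built into the limits, so each type was also split by signal. NMD-typed isoforms exceeded protein-coding ones at 20 to 50 (12.7% against 9.50%), at 50 to 150 (8.63% against 5.21%) and at 150 and over (1.13% against 0.578%), although at 20 to 50 their intervals overlapped (10.2 to 15.6% against 8.40 to 10.7%). Retained introns lay below protein-coding isoforms at 50 to 150 (3.35%) and at 150 and over (0.434%), and processed transcripts at 50 to 150 (2.98%). Under the reversed rule NMD-typed isoforms stood below protein-coding ones in the same bins, at 2.63% against 5.19%, 1.11% against 2.89% and 0.151% against 0.378%. These rested on 14, 8 and 2 NMD-typed isoforms, and the intervals overlapped at 20 to 50 and at 150 and over. With identifiers of the same version only, the NMD-typed share was 2.99% (1.88 to 4.48%) and the protein-coding share 2.02% (1.65 to 2.45%), and their intervals overlap. The retained-intron share was then the highest of the 3, at 3.48% (2.72 to 4.39%).

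**Figure D2:**
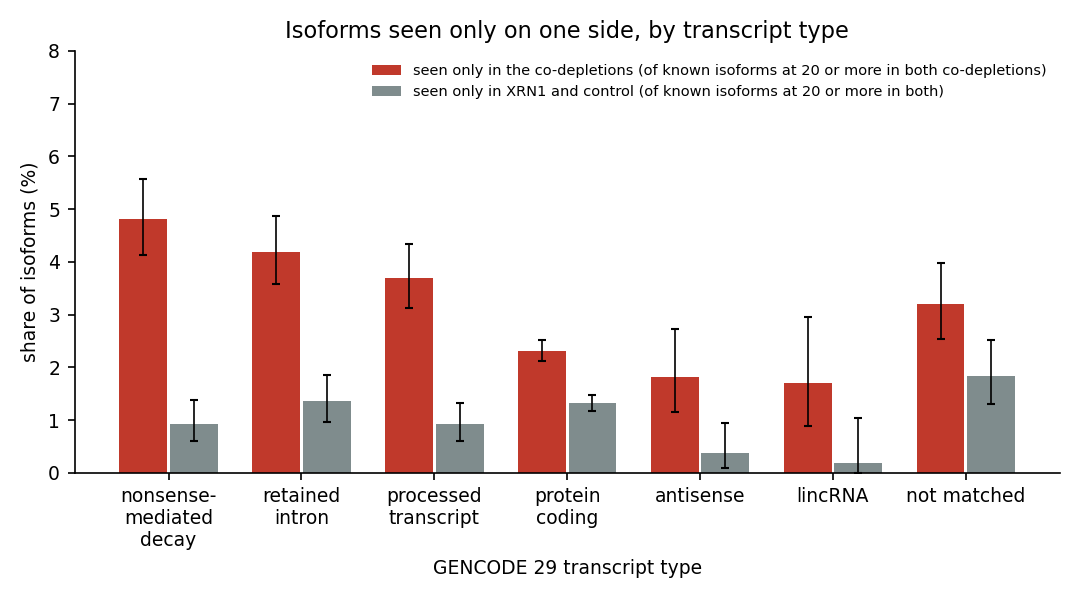
Share of known isoforms seen only in SMG6/XRN1 and UPF1/XRN1 (red), and only in XRN1 and the control (grey), by GENCODE 29 transcript type, with exact 95% intervals that treat isoforms as independent draws. The red bar of NMD-typed isoforms reaches 4.81% and that of protein-coding isoforms 2.31%, while the grey bars stand at 0.932% and 1.32%.

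Annotated structures were compared next, and the stop codon position among them is not independent of the transcript type. Among the isoforms with an annotated stop codon, 175 of 639 (27.4%, 23.96 to 31.0%) had it over 50 bases before the last exon junction, the usual distance beyond which a stop codon triggers NMD. Among the other known isoforms at 20 or more in both co-depletions it was 3464 of 24198 (14.3%), and among those of the reversed rule 27 of 295 (9.15%). With identifiers of the same version only, the values were 21 of 102 (20.6%, 13.2 to 29.7%) and 726 of 4732 (15.3%), which overlap. Among protein-coding isoforms alone such stop codons were rare, in 6 of 469 (1.28%, 0.471 to 2.76%) against 125 of 20835 (0.600%, 0.500 to 0.714%). The difference in stop codons thus largely repeats that in transcript type and is no separate evidence. Each isoform was then compared with the known isoform of its locus with the highest control signal among those matched in GENCODE 29. For 920 of 959 isoforms (95.9%) this was also the highest of all known isoforms in the control. An extra exon was found in 27.0% of the isoforms seen only in the co-depletions (24.2 to 29.9%), against 20.8% of the others (20.3 to 21.4%). Without the loci whose highest known isoform was not matched, it was 27.2% against 20.9%. A skipped exon was found in 24.7% against 24.1%, a retained intron in 9.18% against 7.71%, and another splice site in 20.5% against 21.3%, all within overlapping intervals. Another first exon was found in 49.6% against 45.7%, and another last exon in 36.3% against 38.2%. Skipped bases were summed over each isoform with a skipped exon, and extra bases likewise. The skipped sum was not a multiple of 3 in 143 of 237 isoforms (60.3%, 53.8 to 66.6%), against 55.5% of the others (54.1 to 56.8%). The extra bases were not a multiple of 3 in 60.6% against 56.8% of the others, and the intervals overlapped for both.

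**Figure D3:**
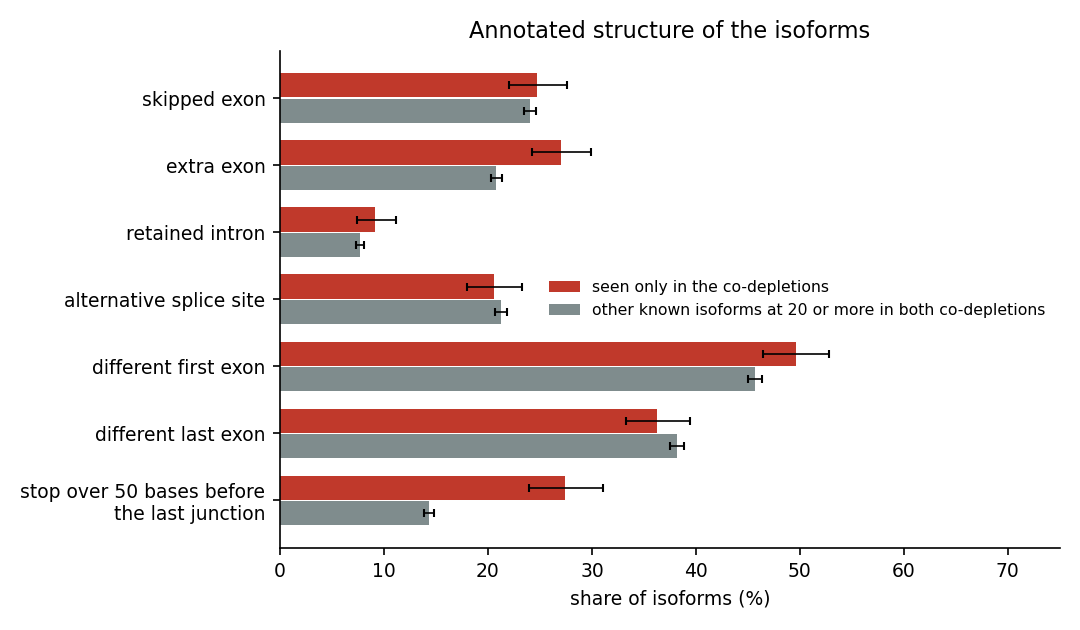
Share of isoforms with each annotated feature, for isoforms seen only in the co-depletions (red) and for other known isoforms at a signal of 20 or more in both (grey), with exact 95% intervals. Splicing features are relative to the matched known isoform with the highest control signal. The widest gap is at the stop codon, 27.4% against 14.3%, which largely repeats the difference in transcript type. The next is at the extra exon, 27.0% against 20.8%.

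Loci with many isoforms gave more of them. Of known isoforms at 20 or more in both co-depletions, 1.37% were seen only there in loci of 1 to 4 isoforms, 2.28% at 5 to 9, 3.27% at 10 to 19 and 4.24% at 20 or more. Under the reversed rule the share grew as well, at 0.560%, 1.14%, 1.41% and 1.62%. The loci held a median of 13 isoforms (1 to 177), against 6 over all loci at a signal of 20. The largest is a merged locus that joins AP2M1, EIF4G1, PSMD2, EIF2B5 and DVL3, so its isoforms belong to neighbouring genes. Only 3 loci had no other isoform: RN7SKP71, CDH12P2 and HADHAP1, a copy of the 7SK small RNA and 2 pseudogenes.

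The gene lists put few of the chosen isoforms in the pathways nearest to the depletions. No isoform of the NMD factors was chosen, of 34 eligible isoforms, which allows a share of up to 10.3% by the exact interval. Of 46 isoforms of the exon junction complex 1 was chosen (MAGOH), and of 181 of cytoplasmic decay factors 3: EXOSC9 of the exosome, SKIV2L of the Ski complex and the exonuclease DIS3L2. Among decay factors, the NMD-typed SKIV2L isoform stood at 72.9 in SMG6/XRN1, 94.6 in UPF1/XRN1 and 0 in XRN1 and the control, which was 2.53% of its locus in SMG6/XRN1 and 3.09% in UPF1/XRN1. All these shares are read against 2.87% over all known isoforms at 20 or more in both co-depletions. The interval of each list but that of ribosomal proteins includes that value. Ribosomal protein genes lay below it, with 1 of 507 (0.197%, up to 1.09%), a retained intron of RPLP0. Over all known isoforms at a signal of 150 and over the share was 0.676%, which that interval includes, and the part of signal in the low share was not tested.

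Splicing regulators gave 7 of 403 isoforms (1.74%, 0.701 to 3.55%): PTBP2, TRA2B, LUC7L3, SRSF4, HNRNPUL1, PRPF39 and QKI. TRA2B, an SR-like protein that limits its own mRNA through a poison exon, had a short isoform of 2 exons and 288 bases at 1150 in SMG6/XRN1, 6773 in UPF1/XRN1 and 0 in XRN1 and the control. Its NMD-typed isoform ENST00000456380 was present in every library, at 35858 in SMG6/XRN1, 68872 in UPF1/XRN1, 13368 in XRN1 and 4261 in the control. The protein-coding isoform stood at 27684 in SMG6/XRN1, 25215 in UPF1/XRN1, 31325 in XRN1 and 27740 in the control. The locus thus moved mainly through an isoform that the rule left out because it was already present in the control. The LUC7L3 isoform, NMD-typed with an extra exon, stood at 412 in SMG6/XRN1, 841 in UPF1/XRN1 and 0 in XRN1 and the control.

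Targets of p53 gave 4 of 78 isoforms (5.13%, 1.41 to 12.6%), from FAS, MDM2, FDXR and BBC3. MDM2, the ubiquitin ligase of p53, had an NMD-typed isoform at 271 in SMG6/XRN1, 98.8 in UPF1/XRN1 and 0 in XRN1 and the control. That of the death receptor FAS stood at 88.1 in SMG6/XRN1, 116 in UPF1/XRN1 and 0 in XRN1 and the control. Targets of ATF4, the transcription factor of the stress response, gave 5 of 95 (5.26%, 1.73 to 11.9%), from SHMT2, WARS and TRIB3. Non-coding hosts of small nucleolar RNAs gave 4 of 95, from GAS5, SNHG1 and SNHG11, and a list of known NMD targets 5 of 149, from GABARAPL1, GAS5, OAZ1, TMEM33 and TRA2B. The GAS5 isoform stood at 55.6 in SMG6/XRN1, 59.8 in UPF1/XRN1 and 0 in XRN1 and the control, at most 0.0474% of a locus that was itself much higher in the co-depletions. Chaperones gave 4 of 150, translation factors 3 of 265, the polyamine pathway 2 of 50 and the proteasome 2 of 141.

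The chosen isoforms were usually a small part of their locus. Their median share was 2.09% in SMG6/XRN1 (quartiles 0.706 and 8.14%) and 2.39% in UPF1/XRN1 (0.730 and 8.92%). At 642 loci they held under 5% in both, at 113 at least 20% and at 40 at least 50%. At 55 loci 1 of them was the top isoform of both co-depletions. In the library labelled XRN1 the leading isoform of the locus was a known one at 872 loci and one with a new junction at 189.

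The other isoforms of these loci were summed, and their change was taken as log2((a + 1)/(b + 1)), with 2-fold as the call. In SMG6/XRN1 over XRN1 their median was 0.21 over 1056 loci, with 37 at least 2-fold higher (3.50%) and 38 lower (3.60%). Over all 19628 loci at a signal of 20 the median was 0.24, with 11.2% higher and 2.20% lower. In UPF1/XRN1 over XRN1 their median was 0.12, with 60 higher (5.68%) and 46 lower (4.36%), against 0.14, 13.0% and 4.37% over all loci. Over the control, the medians were 0.49 in SMG6/XRN1 and 0.39 in UPF1/XRN1, with 229 loci (21.7%) at least 2-fold higher in SMG6/XRN1 and 235 (22.3%) in UPF1/XRN1. Over all loci 23.6% were higher in SMG6/XRN1 and 22.5% in UPF1/XRN1. Falls were called at 31 loci in SMG6/XRN1 (2.94%, all loci 2.67%) and 34 in UPF1/XRN1 (3.22%, all loci 4.02%). XRN1 over control had a median of 0.28, against 0.18 over all loci, with 130 loci higher (12.3%, all loci 13.5%) and 4 lower (0.379%, all loci 5.55%). These comparisons share the XRN1 or the control library. The remaining isoforms thus had fewer 2-fold rises over XRN1 than all loci, which were summed whole. Over loci of 5 or more isoforms the shares of rises were 6.66% in SMG6/XRN1 and 9.09% in UPF1/XRN1, nearer to the loci described here. Falls of the remaining isoforms stood at 3.60% in SMG6/XRN1, against 0.749% over whole loci of 5 or more isoforms. For UPF1/XRN1 the shares were 4.36% and 1.99%. Leaving out the chosen isoforms lowers almost only the co-depletion sums, so more falls and fewer rises are built into these comparisons. When the loci described here were summed whole, SMG6/XRN1 had 0 falls and 6.68% rises. UPF1/XRN1 then had 5 falls (0.470%) and 8.65% rises. No excess of falls was thus seen in whole loci.

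The loci split by how much the chosen isoforms held. Where they held under 5% in at least 1 co-depletion (755 loci), the median change of the others over XRN1 was 0.26 in SMG6/XRN1 and 0.20 in UPF1/XRN1. At 5 to 20% (195 loci) it was 0.12 in SMG6/XRN1 and 0.02 in UPF1/XRN1. At 20 to 50% (73 loci) it was -0.38 in SMG6/XRN1 and -0.46 in UPF1/XRN1. At 50% and over (33 loci) it was -2.94 in SMG6/XRN1 and -2.35 in UPF1/XRN1, while the median of the whole loci was 0.72 in SMG6/XRN1 and 0.49 in UPF1/XRN1. A high share goes with low other isoforms in part by arithmetic, since both come from the same signal.

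**Figure D4:**
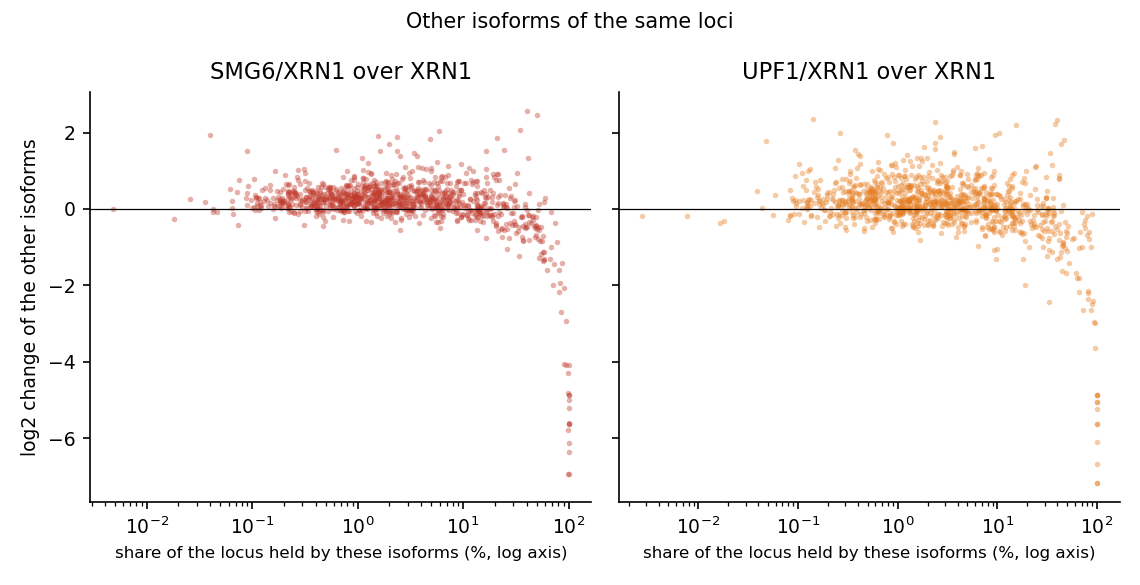
Each point is a locus: the share of its signal held by the chosen isoforms (log axis, %) against the log2 change of its other isoforms over XRN1, for SMG6/XRN1 (left) and UPF1/XRN1 (right). The median at shares under 5% is 0.26 (left) and 0.20 (right), and at 50% and over it is -2.94 (left) and -2.35 (right).

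Falls and rises of the other isoforms were ranked by the smaller of the changes of the co-depletions over XRN1. The deepest falls by that measure were at TNFSF4, LTA, NPC1L1, UPK1A-AS1, MYLK4 and HCG20, where the isoform listed changed as a whole. TNFSF4, a ligand of the TNF family, had the chosen isoform at 268 in SMG6/XRN1, 208 in UPF1/XRN1, 0.0253 in XRN1 and 0.0250 in the control. Its other known isoform, with another first exon, stood at 0.342 in SMG6/XRN1, 0.131 in UPF1/XRN1, 162 in XRN1 and 88.6 in the control. LTA, another ligand of that family, had its isoform at 80.8 in SMG6/XRN1, 78.1 in UPF1/XRN1 and 0 in XRN1 and the control, beside a new-junction isoform at 0 in SMG6/XRN1, 0.00105 in UPF1/XRN1, 36.4 in XRN1 and 53.96 in the control. BACH2, a transcription factor of lymphocytes, showed the same in part at a higher level. Its chosen isoform, which skips exons of the leading isoform, stood at 994 in SMG6/XRN1, 639 in UPF1/XRN1, 0.174 in XRN1 and 0.108 in the control. Its leading isoform stood at 388 in SMG6/XRN1, 570 in UPF1/XRN1, 1539 in XRN1 and 1062 in the control.

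The largest rises by the same measure were at GAS5, HERC2P3, CLHC1, TBC1D3H, ACRBP and TBC1D3B. At GAS5 the other isoforms were 1.94 higher on the log2 scale in SMG6/XRN1 and 1.78 in UPF1/XRN1, over XRN1. At CLHC1 they were 1.91 higher in SMG6/XRN1 and 1.93 in UPF1/XRN1, and its NMD-typed chosen isoform stood at 43.6 in SMG6/XRN1, 22.1 in UPF1/XRN1 and 0 in XRN1 and the control. HERC2P3, TBC1D3H and TBC1D3B have near-identical copies in the genome, so their reads cannot be placed with certainty.

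**Figure D5:**
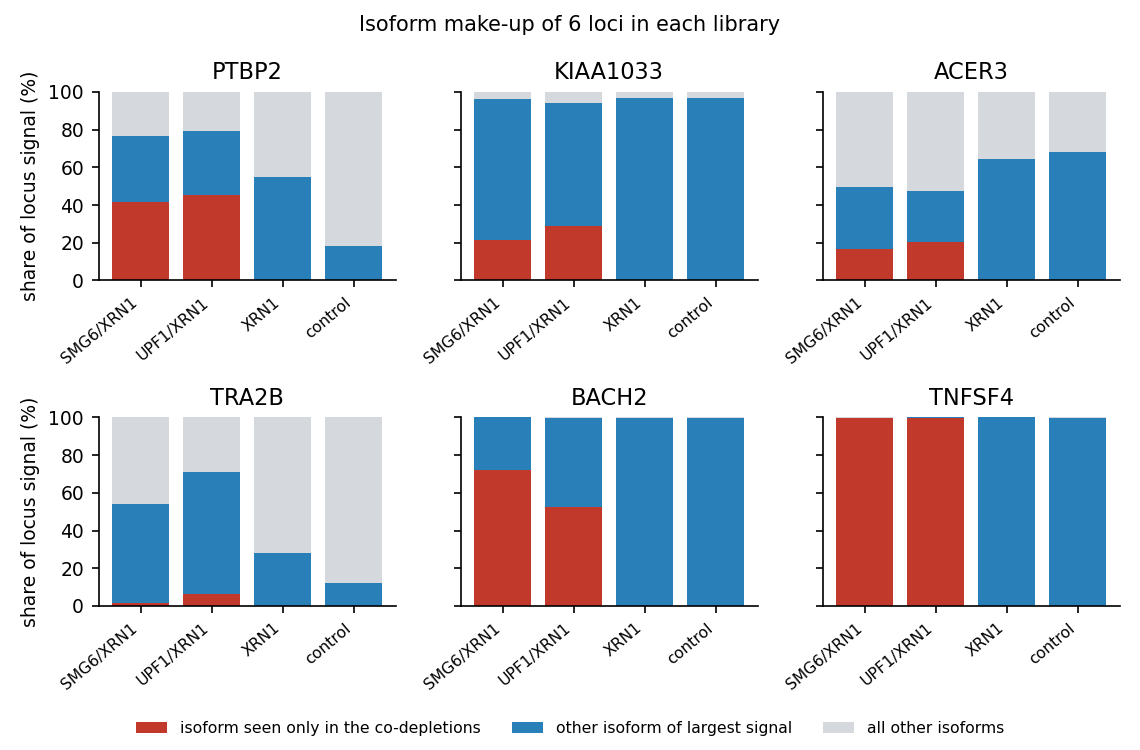
Share of the locus signal (%) held in each library by the chosen isoform (red), by the other isoform of largest signal (blue) and by all further isoforms (grey), at 6 loci picked after their values were seen. Red reaches 45.5% at PTBP2 and 28.9% at KIAA1033 in UPF1/XRN1, stays at 6.36% or less at TRA2B, and replaces blue at TNFSF4.

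The co-depletions were also set side by side. The median log2 ratio of UPF1/XRN1 over SMG6/XRN1 was 0.01 over the 1143 isoforms (quartiles -0.55 and 0.62), with 166 at least 2-fold higher in UPF1/XRN1 (14.5%) and 150 lower (13.1%). Over all known isoforms at 20 or more in both, the median was -0.09, with 6.76% higher and 7.81% lower. Their median signal was 396 in SMG6/XRN1 and 380 in UPF1/XRN1, well above that of the chosen isoforms, and the part of depth in the spread was not tested. By reads, the TRA2B isoform was 5.89 times as high in UPF1/XRN1 as in SMG6/XRN1 (95% interval 5.19 to 6.73), and that of PTBP2 0.935 times (0.893 to 0.979).

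The limits themselves cut through a continuous range. Just inside 4 was an isoform of RP11-795F19.5, at 34.7 in SMG6/XRN1, 48.4 in UPF1/XRN1, 0 in XRN1 and 3.997 in the control. Just outside was one of RP11-883A18.3, at 38.3 in SMG6/XRN1, 59.5 in UPF1/XRN1, 4.05 in XRN1, which is 1 read, and 0 in the control. Just inside 20 were EBF4, at 20.1 in SMG6/XRN1 and 46.6 in UPF1/XRN1, and PFKL, at 22.7 in SMG6/XRN1 and 20.1 in UPF1/XRN1. Just outside were KANK2, at 184 in SMG6/XRN1 and 19.99 in UPF1/XRN1, and BUB1B, at 19.9 in SMG6/XRN1 and 70.0 in UPF1/XRN1.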

How the data were processed

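Cytoplasmic poly(A)+ RNA of 4 libraries was analysed. The submitters' processing notes name Cufflinks 2.0.2, TopHat2 2.0.6, Bowtie 0.12.7 and CASAVA 1.8.2 with hg19, without role or order. The authors deposited FPKM per assembled locus. The isoform signal was deposited by the authors as spike-in normalised, with no word on the spike-in, its factor or strand. Class codes and TRUE or FALSE marks were deposited by the authors as well.

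Depth was read from the signal: of loci with a low signal, 84.7 to 86.5% were whole multiples of the step within 0.01. Changes used a pseudocount of 1, and low values are damped by it. Loci needed a signal of 20 in at least 1 library. Intervals are exact Clopper-Pearson intervals at 95%, and those of read ratios are conditional binomial. Those of reads cover counting error only. Groups of 1 library allow no test, and none was made. Types, exons, stop codons and printed sequences came from GENCODE 29 by transcript identifier.

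The members and the 13 gene lists were chosen with earlier results of these data known. Named isoforms were the 25 of largest smaller co-depletion signal, the 10 of largest share, all list members, the 4 on each side of each limit, and the 6 loci with the largest rise and fall of the other isoforms. Of these, 1 item is not reported here. Others are named as picked later. Python 3.11.15, numpy 2.4.6, pandas 2.3.3 and scipy 1.17.1 were used, and the steps were tested on simulated data.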

Additional observations from a re-analysis of the deposited data

How the results depend on the processing

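The count of 1143 was within 1.5 times under 6 of 8 settings: 855 with 0 in both XRN1 and the control, 1420 with under 8, 1085 with signals rescaled to equal totals, 1140 with limits in reads, 1040 with signals summed per reference transcript and 1140 without loci of 1 isoform. It was 672 with at least 40 in both co-depletions and 350 with at least 80, because fewer isoforms reach those limits. The reversed rule gave 260 and 155 there. Rescaling to equal totals moved the median change of the other isoforms in SMG6/XRN1 over XRN1 to 0.067. Summed signal in place of FPKM put the whole-locus median over XRN1 at 0.29 in SMG6/XRN1 (0.19 by FPKM) and 0.22 in UPF1/XRN1 (0.14 by FPKM). At loci with a signal of at least 200 in both co-depletions, the median share was 1.82% in SMG6/XRN1 and 2.005% in UPF1/XRN1. The cause of these shifts was not tested. No result changed direction in the settings run. Settings on transcript type, version, stop codons and splicing features were chosen after seeing the data. With at least 80 in both co-depletions, 25.5% of stop codons lay over 50 bases before the last junction. No paired analysis was possible because each group had 1 library and no test was run, and no library could be left out for the same reason. A total of 477 isoforms rested on under 10 reads.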
